A study of Mus with 2 samples.

Results

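The genes described here are 10 genes of the T cell receptor complex and of cytotoxic lymphocytes: Cd3d, Cd3e, Cd3g, Il7r, Nkg7, Gzma, Gzmb, Gzmk, Cd8a and Cd8b1. They were chosen by name, with earlier results of these data known. They were taken wherever the authors' deposited table lists them, which gave 10 of the 8192 gene identifiers in that table. Each of the 10 was listed in 1 cluster only. The cluster that the authors labelled T listed 9 of them, the cluster labelled B listed Gzma, and the PT, LOH, endo, Marco and Neutro clusters listed 0. The data come from dissociated whole kidneys of senescent and of young C57BL/6 mice, sequenced cell by cell in droplets, with a single library for each group. According to the series, 4408 cells were isolated for the senescent mice and 10895 for the young mice. The ages, the sex and the number of mice per library, the number of cells per cluster and the depth are not stated in the sources used here.

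The T cell receptor recognises a peptide held by an MHC molecule through its variable chains, and it signals through the CD3 chains and the zeta chain that are bound to it. CD8 is the coreceptor of T cells that recognise MHC class I, and IL-7 is a cytokine that keeps naive and memory T cells alive. Cytotoxic T cells and natural killer cells kill through granules that release perforin and granzymes, which are serine proteases. Resident T cells are a regular part of the kidney's immune cells, next to its macrophages.

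Each value below is the authors' mean of scaled expression per cell of a cluster in 1 library. The scale factor is not stated, so these are relative levels. A log2 fold change is the authors' value for senescent over young. A gene is counted as higher or lower here where its log2 fold change in the authors' deposited table was at least 1 in size, which is a ratio of 2, and its adjusted p there was at most 0.05. That adjusted p treats cells as the units and measures no spread between mice. With a single library for each group there is no replicate check, so none of the differences below could be tested against the variation between animals. Entries of the table all have a p-value of at most 0.05 and a log2 fold change of at least 0.36 in size, so a listed gene had to differ, and a gene that is not listed cannot be called unchanged or absent. A mean over the cells of a cluster cannot tell more T cells in the cluster from more RNA per T cell.

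In the T cluster, the CD3 chain genes, Il7r, Nkg7 and Cd8b1 were higher in the senescent library, between 2.94-fold and 5.45-fold. Cd8a, Gzmb and Gzmk also had higher senescent means there but did not pass the adjusted p. In the B cluster, Gzma was listed at 0 in the senescent library and at 0.542 in the young library, and it did not pass either. In all, 6 of the 9 genes listed in T passed both thresholds as higher and 0 as lower, against 3.85% of the 4368 genes listed in T that passed as higher and 20.7% that passed as lower. On the fold change alone, 8 of the 9 were past the threshold, against 25.8% of the genes listed in T. Their median log2 fold change in the authors' deposited table was 1.97, beside a median of -0.54 over all genes listed in T and of 1.14 over the 1959 genes listed there as higher.

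**Figure D1:**
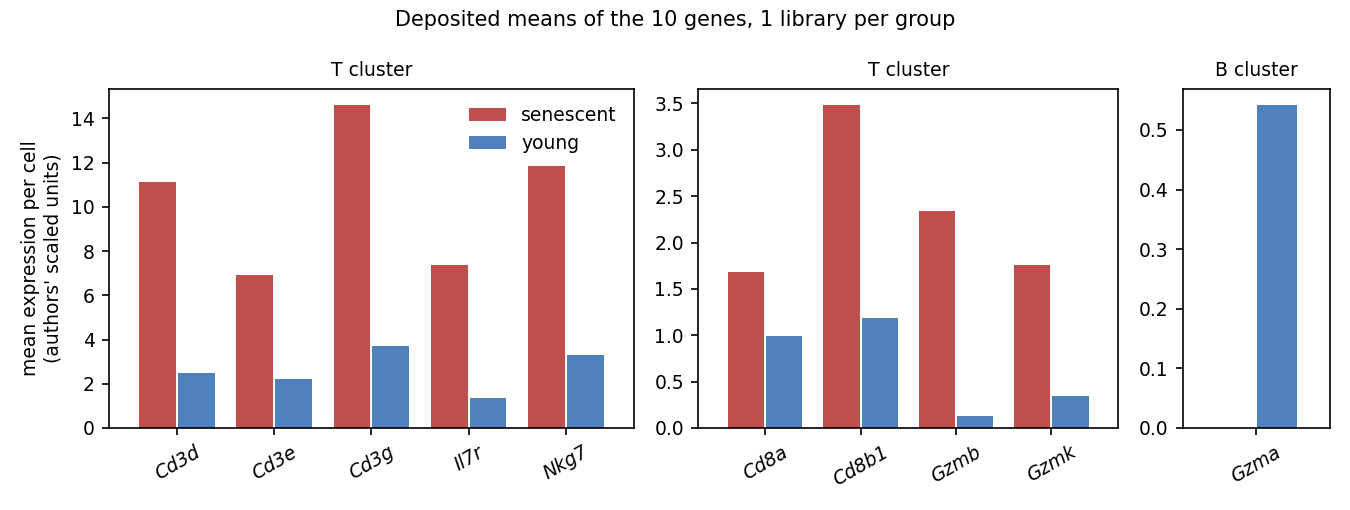
Bars give the authors' mean scaled expression per cell (y axis, from 0, different range in each panel) of each gene in the senescent library (red) and the young library (blue), with 1 library per group and so no error bars. The 9 genes of the T cluster have the taller bar in the senescent library, and Gzma in the B cluster has a bar in the young library only, at 0.542.

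The CD3 chain genes of the receptor complex all had higher senescent means in T. Cd3d, the CD3 delta chain, had a mean of 11.1 in the senescent library and 2.49 in the young library. The ratio was 4.47, with an adjusted p of 4.88e-12 in the authors' deposited table, the smallest of the 10 genes. Cd3g, the gamma chain, had a mean of 14.6 in the senescent library and 3.72 in the young library. It was 3.93-fold higher, with an adjusted p of 1.45e-09 in the authors' deposited table. Cd3e, the epsilon chain that pairs with each of the others, had a mean of 6.91 in the senescent library and 2.20 in the young library. It was 3.14-fold higher, with an adjusted p of 0.000985 in the authors' deposited table. For all 3 chains the senescent library was the higher of the pair, and the log2 fold changes of 2.16, 1.97 and 1.65 in the authors' deposited table lay within 0.51 of each other. The 3 genes are neighbours on mouse chromosome 9 (GRCm38.p6, RefSeq, the same coordinates as mm10). Cd3g runs from 44969572 to 44980431, Cd3d from 44981769 to 44987052 and Cd3e from 44998735 to 45009663. The gaps between them are 1337 and 11682 bases, and the RefSeq table has no gene in either gap. Whether their position bears on their levels was not tested.

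The other chains of the complex were taken from a list of 11 genes that includes the 3 CD3 chains. In T, 7 of the 11 were listed, all 7 with higher senescent means, and 5 passed as higher. Over all genes listed in T, 44.8% had higher senescent means and 3.85% passed as higher. Trac, the constant region of the alpha chain, had a mean of 6.06 in the senescent library and 1.76 in the young library, and it passed with an adjusted p of 0.00880 in the authors' deposited table. Trbc2, a constant region of the beta chain, had a mean of 13.0 in the senescent library and 4.24 in the young library, and it passed with an adjusted p of 0.000165 in the authors' deposited table. Trbc1, the other beta constant region, had means of 6.25 in the senescent and 1.06 in the young library. Its ratio of 5.89 was above that of Trbc2, but its adjusted p in the authors' deposited table was 1. Trbc1 and Trbc2 are near-identical copies, so how reads were divided between them is uncertain. Cd247, which encodes the zeta chain, had means of 1.47 in the senescent and 0.313 in the young library, with an adjusted p of 1 in the authors' deposited table. The constant regions of the gamma and delta chains (Trdc, Tcrg-C1, Tcrg-C2 and Tcrg-C4) were not listed in any cluster.

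The CD8 coreceptor chains differed in the size of their change. Cd8b1, the beta chain, had a mean of 3.48 in the senescent library and 1.18 in the young library. It was 2.94-fold higher and passed with an adjusted p of 0.0186 in the authors' deposited table, the largest among the 6 genes that passed. Cd8a, the alpha chain, which also forms a homodimer and is found on some dendritic and natural killer cells in rodents, had a mean of 1.68 in the senescent library and 0.988 in the young library. Its ratio of 1.70 was the smallest of the 9 genes, and it missed both thresholds, with an adjusted p of 1 in the authors' deposited table. The log2 fold change of Cd8b1 was 0.79 above that of Cd8a in the authors' deposited table. That of Cd8b1 lay 0.09 below Cd3e, and that of Cd8a 0.89 below Cd3e. These differences between genes do not depend on how a library was scaled, but they were not tested. Cd8b1 (71322788 to 71337492) and Cd8a (71373427 to 71379171) lie 35.9 kb apart on chromosome 6, with no gene between them in the RefSeq table.

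Il7r, the alpha chain of the IL-7 receptor, had the largest fold change among the 6 genes that passed. Its mean was 7.39 in the senescent library and 1.35 in the young library, a ratio of 5.45, with an adjusted p of 0.00810 in the authors' deposited table. The log2 fold change of 2.45 in the authors' deposited table was 0.80 above that of Cd3e. Il7r also marks innate lymphoid cells and early B cell precursors. It lies on chromosome 15 from 9506159 to 9529941.

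Of the cytotoxic genes, Nkg7 passed and the granzymes did not. Nkg7, a membrane protein of cytotoxic granules in T and natural killer cells, had a mean of 11.9 in the senescent library and 3.32 in the young library. It was 3.58-fold higher, with an adjusted p of 5.05e-06 in the authors' deposited table, and its log2 fold change of 1.84 there lay 0.19 above that of Cd3e. Gzmb, granzyme B, which cleaves after aspartate and activates caspases in the target cell, had a mean of 2.34 in the senescent library and 0.132 in the young library. The ratio of 17.8 was the largest of the 9 genes, but the p-value in the authors' deposited table was 0.0266 and the adjusted p was 1. Gzmk, granzyme K, a tryptase carried by a subset of memory CD8 T cells, had a mean of 1.76 in the senescent library and 0.348 in the young library. Its ratio was 5.06, with a p-value of 0.0346 and an adjusted p of 1 in the authors' deposited table. The senescent library was the higher for all 3 genes, and for both granzymes the young mean was under 0.5, so the size of their ratios is less certain than that of Nkg7. After adding 1 to each mean, the log2 ratio of Gzmb was 1.56 and that of Nkg7 was 1.58. Nkg7 lies on chromosome 7 from 43437138 to 43438246 and Gzmb on chromosome 14 from 56258836 to 56262334.

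Gzma, granzyme A, also a tryptase and a gene of natural killer cells as well as of T cells, was not listed in T. In B, its mean was 0 in the senescent library and 0.542 in the young library, with a p-value of 0.00133 and an adjusted p of 1 in the authors' deposited table. No fold is given, because the senescent mean was listed at 0, as it was for 159 of the 3077 genes listed in B. By fold change alone, 54.1% of the genes listed in B were lower, and 15.5% were lower past both thresholds. Prf1, perforin, which opens the target cell's membrane to granzymes, was also listed in B and not in T, with means of 0.0164 in the senescent and 0.189 in the young library and an adjusted p of 1 in the authors' deposited table. Of the 17 fixed T cell markers, 0 were listed in B. Gzma (113093824 to 113100981) overlaps Cdc20b in the RefSeq table, so reads of that stretch could be counted for either gene. Gzmk, its neighbour on chromosome 13 (113171630 to 113180965), starts 70.6 kb further on, with 1 gene between them.

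**Figure D2:**
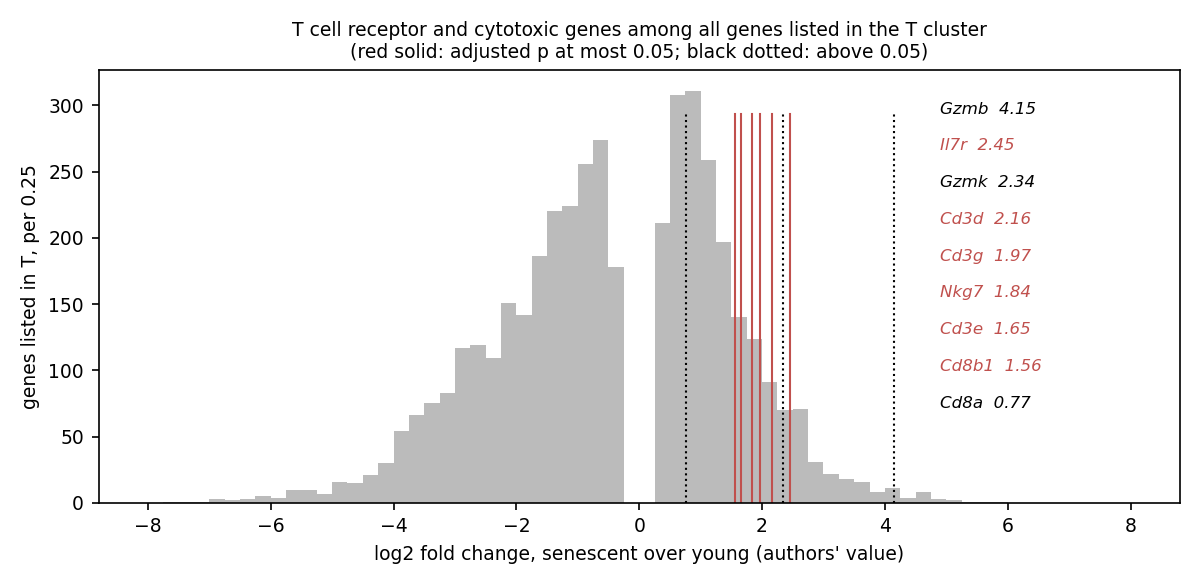
The histogram counts the genes listed in T (y axis) by the authors' log2 fold change, senescent over young (x axis, in bins of 0.25), and leaves out 77 genes beyond a log2 fold change of 8 in size. Vertical lines mark the 9 genes, red where the adjusted p was at most 0.05 and black dotted where it was above. The 6 red lines lie between 1.56 and 2.45, inside the right-hand body of the histogram, and Gzmb at 4.15 lies in its tail.

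Among the 1959 genes listed in T as higher, the position of each gene differed. By the log2 fold change in the authors' deposited table, 3.98% of these genes lay above Gzmb, 13.3% above Il7r and 17.7% above Cd3d. For Cd3e the share above was 29.8%, for Cd8b1 32.8% and for Cd8a 72.3%. Of the 9 genes, 8 lay above the median of the higher genes. By p-value in the authors' deposited table, Cd3d was at position 185 and Cd3g at position 278 of the 4368 genes listed in T, while Gzmk was at position 4186.

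Other values of the T cluster, beside those of the genes described, also differed between the libraries. In T, all 12 fixed proximal tubule markers were lower in the senescent library, 11 of them past both thresholds, with a summed mean of 24.2 in the senescent and 636 in the young library. Genes whose young mean was higher in PT than in T made up 11.9% of the summed senescent means and 34.3% of the summed young means over the genes listed in T. The 78 listed genes of cytosolic ribosomal proteins had a median log2 fold change of 0.99 in the authors' deposited table. With the PT-higher genes left out and each library rescaled to the sum of the rest, all log2 ratios in T dropped by 0.35, and all 9 genes kept a higher senescent value, from 0.41 for Cd8a to 3.80 for Gzmb. With the ribosomal protein genes as the centre, all log2 ratios dropped by 0.99, and 8 of the 9 kept a higher senescent value while Cd8a turned to -0.22. Relative to the ribosomal protein genes, Cd3d was at 1.17, Il7r at 1.46, Cd3g at 0.99, Nkg7 at 0.85, Cd3e at 0.67 and Cd8b1 at 0.57. Marco and B showed a like pattern. In Marco, all 10 macrophage or monocyte markers had higher senescent means, beside 58.3% of all genes listed there. They summed to 186 in the senescent and 31.2 in the young library. In B, all 6 listed B cell markers had higher senescent means, beside 28.2% of all genes. They summed to 90.1 in the senescent and 35.7 in the young library. Proximal tubule markers summed to 25.3 (senescent) and 795 (young) in Marco, and to 25.8 and 646 in B. How far the difference in tubule transcripts sets the size of the T cell gene differences was not tested beyond these rescalings.

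**Figure D3:**
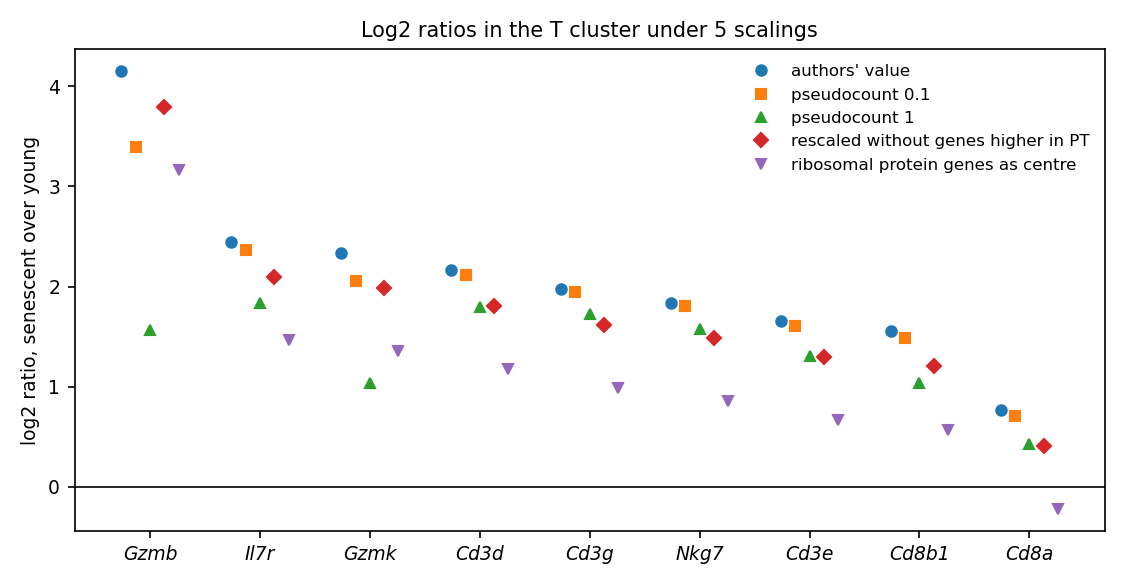
Points give the log2 ratio of senescent over young (y axis) of the 9 genes in T (x axis, in order of the authors' log2 fold change) under 5 scalings, each with its own symbol. All points lie above 0 except that of Cd8a with the ribosomal protein genes as centre, at -0.22, and Gzmb moves most, from 4.15 to 1.56 after adding 1 to each mean.

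Markers of T cells and of other cell types were looked up among the genes listed in T. A marker at a like level in both libraries would not be listed, so a marker that is missing says nothing about the cluster's label. Of the 17 T cell markers, 15 were listed, all with higher senescent means and 6 past both thresholds, and their summed means were 87.6 in the senescent and 23.0 in the young library. This list shares Cd3d, Cd3e, Cd3g and Il7r with the 10 genes, all of them past both thresholds. The count and the sum therefore partly restate the genes described. Trac and Trbc2 were the other markers that passed. Of the 12 natural killer cell markers, only Nkg7, Klrd1 and Tyrobp were listed in T, and the defining genes Ncr1, Klrb1c, Klre1 and Eomes were not. Klrd1, the CD94 chain of an inhibitory and activating receptor, had means of 1.96 in the senescent and 0.408 in the young library, and Tyrobp, a signalling adaptor also found in macrophages, had means of 0.470 in the senescent and 0.300 in the young library. Both had an adjusted p of 1 in the authors' deposited table. Markers of B cells (0 of 8) and of endothelium (0 of 6) were missing from the genes listed in T. Of the 10 macrophage or monocyte markers only Ccr2 was listed, which activated T cells also express, at 1.74 in the senescent library and 0 in the young library. Of the 6 neutrophil markers only S100a9 was listed, at 0.528 in the senescent and 0.0172 in the young library, with an adjusted p of 1 in the authors' deposited table. S100a9 had a higher senescent mean in each of the other clusters as well. The 5 loop of Henle markers were all lower, with summed means of 0.829 in the senescent and 3.17 in the young library.

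**Figure D4:**
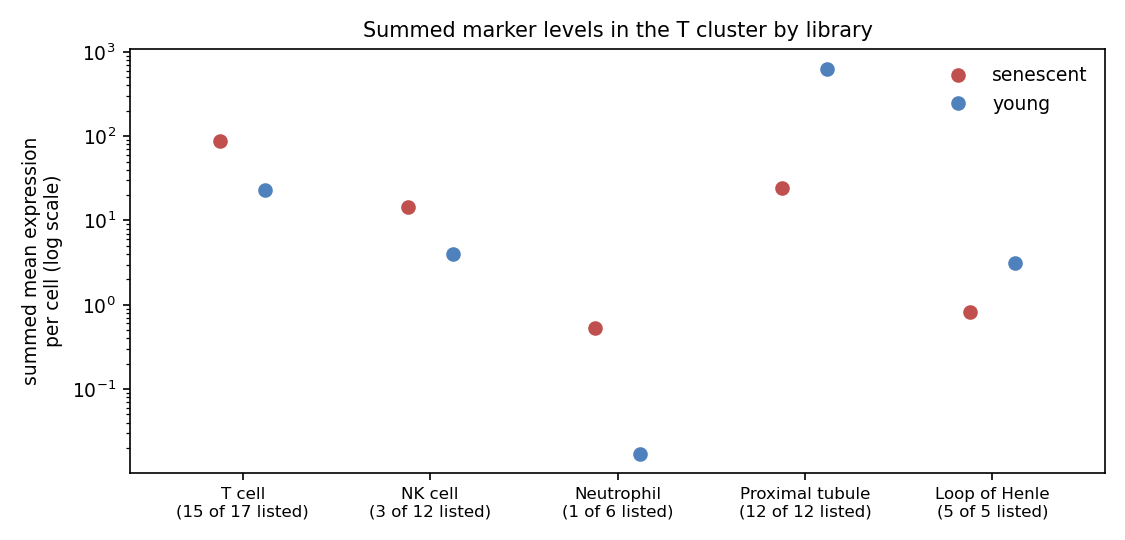
Points give the summed mean expression per cell (y axis, log scale) of the listed markers of each cell type (x axis) in the T cluster, for the senescent library (red) and the young library (blue). T cell markers sum to 87.6 in the senescent and 23.0 in the young library, and proximal tubule markers to 24.2 in the senescent and 636 in the young library. The macrophage list, with only Ccr2 listed and at 0 in the young library, is not drawn. Some of the genes described are part of these sums, namely Cd3d, Cd3e, Cd3g and Il7r (T cell) and Nkg7 (natural killer cell).

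Genes that act with the receptor showed the same direction in T in most lists. The background for each list is all 4368 genes listed in T, of which 44.8% had higher senescent means. Of those 4368 genes, 3.85% passed as higher and 20.7% as lower. Of 17 genes of coreceptors and costimulation, 11 were listed in T, all with higher senescent means, and 2 passed, namely Cd8b1 and Cd52. Cd52, a small glycoprotein of the lymphocyte surface, had means of 47.0 in the senescent and 7.80 in the young library, a ratio of 6.03. The largest ratios belonged to genes with low young means that did not pass the adjusted p. Ctla4, an inhibitory receptor, had means of 0.907 in the senescent and 0.0295 in the young library. Icos, a costimulator of helper T cells, had means of 1.33 in the senescent and 0.0697 in the young library, and Cd28, the main costimulatory receptor, had means of 1.91 in the senescent and 0.104 in the young library. Cd4, the coreceptor of helper T cells, had means of 1.03 in the senescent and 0.116 in the young library, and Cd48, a ligand of CD2-family receptors, had means of 2.27 in the senescent and 0.385 in the young library. The inhibitory receptor genes Pdcd1, Lag3 and Tigit were not listed in any cluster.

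Of 20 genes of proximal receptor signalling, 11 were listed in T, all with higher senescent means. Of these 11, 3 passed, beside 3.85% of all genes listed in T. Those were Rac2, a GTPase of blood cells (8.85 in the senescent and 2.37 in the young library), Coro1a, an actin regulator (7.17 in the senescent and 2.16 in the young library), and Ptprc, the phosphatase CD45 (10.7 in the senescent and 3.52 in the young library). These 3 genes are expressed by leukocytes in general. Lck, Lat and Lcp2 did not pass the adjusted p, with ratios of 3.34, 4.02 and 6.27. The ratios of Ptprc, Coro1a and Rac2, which passed, were 3.05, 3.32 and 3.74. Lck, the kinase that phosphorylates the CD3 chains, had means of 2.64 in the senescent and 0.789 in the young library. Lat, the adaptor that assembles the signalling complex, had means of 4.18 in the senescent and 1.04 in the young library, with an adjusted p of 0.125 in the authors' deposited table. Lcp2, the adaptor SLP-76, had means of 1.54 in the senescent and 0.246 in the young library. Zap70, the kinase recruited to the phosphorylated chains, was not listed in any cluster.

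The list of cytotoxic granule and effector genes held genes of both directions. Of its 21 genes, 12 were listed in T, 10 with higher and 2 with lower senescent means, of which 3 passed as higher and 2 as lower. Over all genes listed in T, 44.8% had higher senescent means, 3.85% passed as higher and 20.7% passed as lower. Beside Nkg7, the genes that rose were Ccl5, a chemokine stored by memory CD8 T cells, and Srgn, the granule proteoglycan serglycin. Ccl5 had means of 83.8 in the senescent and 11.9 in the young library, and Srgn had means of 7.45 in the senescent and 1.58 in the young library. The genes that fell were Cd63, with means of 1.14 in the senescent and 7.97 in the young library, and Lamp1, with means of 1.29 in the senescent and 3.95 in the young library. Both encode membrane proteins of lysosomes and of secretory granules in many cell types, tubule cells included. Fasl, the death ligand, and Serpinb9, an inhibitor of granzyme B, had senescent means of 0.497 and 0.499 and were both listed at 0 in the young library. Cst7, cystatin F, had means of 1.13 in the senescent and 0.118 in the young library. For these 3 genes the authors' deposited table gives an adjusted p of 1, and Ifng, Gzmm and Xcl1 were not listed in any cluster.

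Of 15 genes of cytokine receptors and their signal, 10 were listed in T, all with higher senescent means, and Il7r was the only 1 that passed. Among all genes listed in T, 3.85% passed as higher. Il18r1, a chain of the IL-18 receptor, was listed at 1.42 in the senescent and 0 in the young library, with an adjusted p of 0.112 in the authors' deposited table. Il18rap, its partner chain, had means of 0.408 in the senescent and 0.0220 in the young library. Il2rg, the common gamma chain that pairs with the product of Il7r, had means of 3.05 in the senescent and 1.05 in the young library, a ratio of 2.89 beside 5.45 for Il7r. Jak1, the kinase bound to the IL-7 receptor alpha chain, had means of 3.41 in the senescent and 1.17 in the young library. Socs1 and Cish, feedback inhibitors of these receptors, had ratios of 6.19 and 4.37. None of the genes named here beside Il7r passed the adjusted p.

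Trafficking genes and transcription factors of T cells had higher senescent means as well, and 1 passed. Of 15 trafficking and state genes, 8 were listed in T, all with higher senescent means, and 0 passed both thresholds, while 7 were past the fold change alone. Among all genes listed in T, 3.85% passed as higher and 25.8% were higher past the fold change alone. Cxcr6, a receptor of resident memory T cells, had means of 4.16 in the senescent and 0.709 in the young library, and Cd44, an adhesion receptor of activated and memory T cells, had means of 1.19 in the senescent and 0.0917 in the young library. Tcf7, a factor of naive and stem-like memory T cells, had means of 1.42 in the senescent and 0.439 in the young library. Ccr7 and Lef1, further genes of naive T cells, were not listed in any cluster. Of 17 transcription factors, 6 were listed in T, all with higher senescent means, and Id2, which natural killer cells and memory CD8 T cells need, passed with means of 9.59 in the senescent and 2.76 in the young library. Gata3, a factor of T cell development and of type 2 helper cells, had means of 0.987 in the senescent and 0.0597 in the young library. With the ribosomal protein genes as the centre, Cd8a, Tyrobp and Itga1 were the list genes with higher means whose direction turned, with Tyrobp at -0.34 and Itga1 at -0.04.

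**Figure D5:**
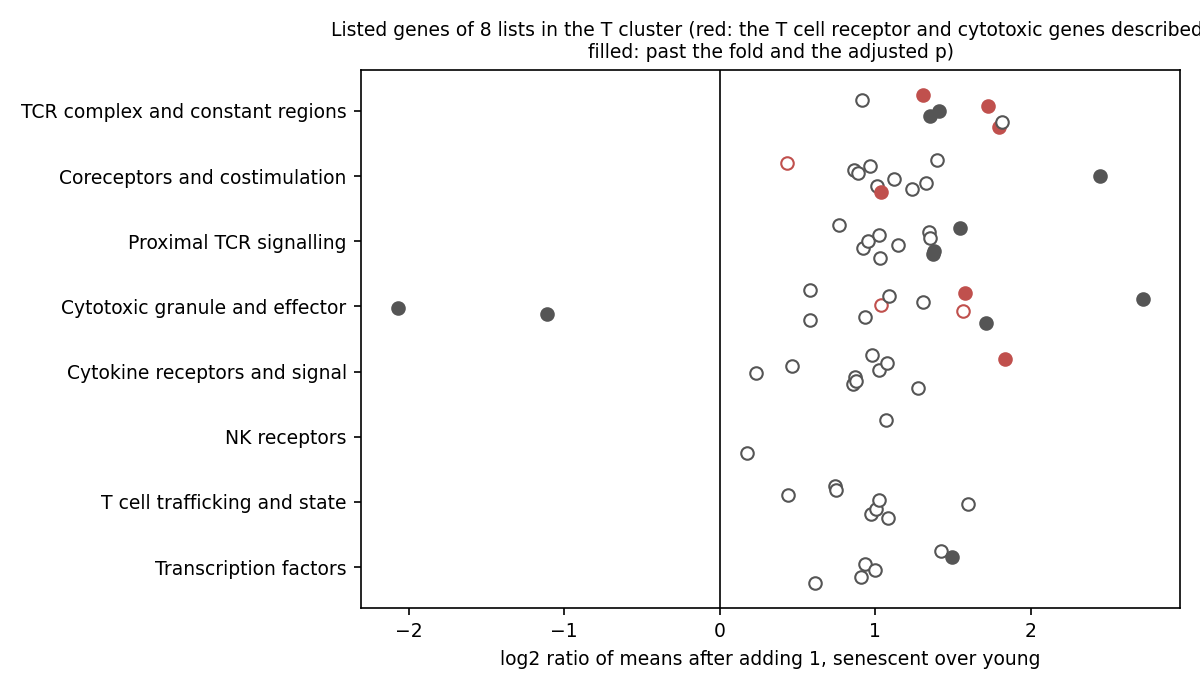
Each point is a gene of 1 of 8 lists (y axis) listed in the T cluster, placed by the log2 ratio of its means after adding 1, senescent over young (x axis). Filled points passed the fold and the adjusted p, and the T cell receptor and cytotoxic genes are red. Only Cd63 and Lamp1 lie left of 0, in the list of cytotoxic granule and effector genes.

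The pathway terms in the authors' deposited table overlap with these lists, so their counts are no independent evidence. The background is all 4368 genes listed in T, of which 44.8% had higher senescent means, 3.85% passed as higher and 20.7% passed as lower. In T, 42 listed genes carried the term T cell receptor signaling pathway, among them Cd3d, Cd3e, Cd3g, Cd8a and Cd8b1. Of these, 40 had higher and 2 lower senescent means, 8 passed as higher and 0 as lower, and their median log2 fold change was 1.61 in the authors' deposited table, beside -0.54 for all genes listed in T. The term Natural killer cell mediated cytotoxicity was carried by 34 listed genes, of which only Gzmb is among the 10. Of these, 30 had higher and 4 lower senescent means, 3 passed as higher and 0 as lower, and the median was 1.90 in the authors' deposited table. The term Hematopoietic cell lineage was carried by 23 listed genes, 6 of the 10 among them. Of these 23, 16 had higher and 7 lower senescent means, 5 passed as higher and 3 as lower. The term cytolysis was carried by 5 listed genes, namely Gzmb, C8a, C8g, Fgl2 and Ninj1. Only Gzmb is also in the list of cytotoxic granule and effector genes. Of these 5 genes, 2 were higher and 3 lower, and their median log2 fold change was -1.99 in the authors' deposited table. The terms Primary immunodeficiency (13 genes) and Th1 and Th2 cell differentiation (29 genes) were carried by genes with higher senescent means only, of which 5 passed in each.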

How the data were processed

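The submitters' processing notes name Cell Ranger 2.1.1 and build mm10. How cells were clustered, doublets handled, values scaled and groups tested is not stated in the sources used here. The deposited signal is the authors' average per cell of a cluster. The description label of each sample names its column, on which every direction rests, since the table's own contrast name is not explained. Recomputing the authors' log2 fold changes from the means, with 0.0001 added to both, matched all but 1 of 20111 entries to within 0.01. The deposited adjusted p-values are the p-values times about 32574, as in a Bonferroni adjustment, to within 1% wherever the product stayed under 1. Counts of reads or cells per cluster were not used here, so values have no counting interval.

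From the means, ratios, counts past the thresholds and medians of gene lists were computed. The alternatives tried were other pseudocounts, scalings, thresholds and minimum means. The 10 genes and all lists were chosen with earlier results of these data known. Named genes were the 10 and, from each list, the 6 or fewer with the largest log2 fold change whose higher mean was at least 0.1, in T and in clusters listing at least 3 genes of the list. In T, the genes outside that rule were C8a, C8g, Coro1a, Fgl2, Il2rg, Itga1, Jak1, Lamp1, Lck, Ninj1, Ptprc, Rac2, Srgn, Tcf7, Trbc2, Ccr2 and S100a9. These and the genes that are not listed were named after their values were seen. Genes of like pattern were not sought, since that needed 3 clusters and each of the 10 was listed in 1. Coordinates come from RefSeq (GRCm38.p6), matched by symbol for 10 of 10 genes. Only the calling rule and the log2 ratio were run on simulated data. The adjusted p-values there were set in advance, so the run checked the code alone. Python 3.11.15, numpy 2.4.6, pandas 2.3.3 and matplotlib 3.10.9 were used.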

Additional observations from a re-analysis of the deposited data

Results flagged for a closer look

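There were 7 list genes that went in opposite directions in the T cluster and in another cluster of the same pair of libraries. The differences between clusters were not tested, for want of replicate libraries, and each is the log2 fold change in T minus that in the other cluster, from the authors' deposited table. Cd52 and Lamp1 passed the adjusted p in both clusters, though in PT both were under the fold threshold. Id2 passed it in T but not in B (0.118 there), and Tyrobp in PT but not in T. Itga1, Runx3 and Serpinb9 passed it in neither cluster. Cd52 was at 2.59 in T and -0.79 in PT, a difference of 3.38. Id2 was at 1.79 in T and -1.30 in B, a difference of 3.09. Lamp1 was at -1.61 in T and 0.43 in PT, a difference of -2.05. Tyrobp was at 0.65 in T and -0.69 in PT, a difference of 1.34. Itga1 was at 0.95 in T and -1.23 in Marco, a difference of 2.18. With the ribosomal protein genes of each cluster as centre, 3 of these genes went the same way in both clusters, namely Lamp1 (-2.60 in T and -0.21 in PT), Tyrobp (-0.34 in T and -1.33 in PT) and Itga1 (-0.04 in T and -2.42 in Marco). Runx3 was at 1.72 in T and -4.67 in Neutro, a difference of 6.39, with an adjusted p of 1 in both, and no ribosomal protein gene was listed in Neutro to centre on. Serpinb9 was at 12.28 in T and -0.99 in endo, a difference of 13.28 that depends on the 0.0001 added to a young mean of 0 in T.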

How the results depend on the processing

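The median log2 ratio over the 9 genes listed in T was 1.97 as deposited, 1.95 with a pseudocount of 0.1, 1.56 with a pseudocount of 1, 1.62 rescaled without the genes higher in PT and 0.99 with the ribosomal protein genes as centre, and it did not change with a minimum mean of 0.1. Cd8a reversed to -0.22 with that centre. Requiring a log2 fold change of 2 left 2 of the 6 genes counted as higher in T (Cd3d and Il7r). It left 1 receptor complex gene of 5, 1 coreceptor gene of 2, 0 signalling genes of 3, 0 transcription factors of 1, and 1 lower cytotoxic list gene of 2. An adjusted p of at most 0.01 left 1 coreceptor gene. With no limit on the adjusted p, the counts as higher in T were 10 for coreceptors, 11 for signalling, 10 for cytotoxic genes, 10 for cytokine receptors, 1 for natural killer receptors, 7 for trafficking and 6 for transcription factors, and Gzma was the 1 member counted as lower in B. The share of genes listed in T counted as higher was 3.85%, and it was 5.88% at a ratio of 1.5, 0.893% at a log2 fold change of 2 and 25.8% with no adjusted p. The share counted as lower in B was 15.5%, and 54.1% with no adjusted p. The other 102 alternatives of these results stayed within 1.5 times or did not change, the median with a minimum mean of 0.1 among them. Many of them set a count of 0 beside a count of 0, which a stricter threshold could not change. No paired analysis was possible because each group had 1 library, and for the same reason no replicate could be left out. The ratios of Gzmb and Gzmk rest on young means under 0.5 in 1 library.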

Other observations

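Outside T, the list of receptor signalling genes, many of which other leukocytes also express, was listed in Marco and in B. In Marco, 9 of the 20 signalling genes were listed, all with higher senescent means, beside 58.3% of all genes listed there. Fyn, a kinase of the Src family, had means of 0.592 in the senescent and 0.0595 in the young library in Marco, and Ptpn6, the phosphatase SHP-1, had means of 2.93 in the senescent and 0.508 in the young library. In B, 5 signalling genes were listed, all with higher senescent means, beside 28.2% of all genes listed there, and each had an adjusted p above 0.05. Ptprc had means of 6.64 in the senescent and 1.54 in the young library there. Of the 5 cytotoxic list genes listed in B, 4 had lower senescent means, as did 2208 of all 3077 genes listed there. Cd63 was the only 1 that passed as lower in B, with means of 1.33 in the senescent and 8.18 in the young library. In Marco, Cd63 also had the lower mean in the senescent library, at 4.93 beside 8.52 in the young library. In PT, Bcl11b, a transcription factor of T cell development, had means of 0.247 in the senescent and 0.0319 in the young library, while no member of the receptor complex list was listed in that cluster.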
